A study of Mus musculus with 21 samples.

Results

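The 10 genes described here are regulators of cell lineage in the mammary epithelium, followed across 6 groups of mouse mammary organoids. They were taken as a list of names and matched by gene symbol in the GENCODE vM21 annotation to 10 of the 55536 gene IDs of the count table, and all 10 passed the filter on low counts. The list holds the ETS family factors Elf5, Ehf, Elf3 and Spdef, the SOX factors Sox9 and Sox10, the receptor tyrosine kinase Kit, the AP-2 factor Tfap2c, the helix-loop-helix protein Id4 and the Runt factor Runx1. Kit is a cell-surface receptor and no transcription factor, and Id4 binds no DNA of its own but holds other helix-loop-helix proteins off it.

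The organoids, grown from primary mammary cells, were either wild type (WT) or homozygous for the ATLD1 allele of Mre11 (ATLD), the nuclease of a complex that senses DNA breaks. RNA was taken at day 0, day 14 and day 28 after the oncogene neuT, an activated form of the ERBB2 receptor, was switched on, with 3 libraries for each of the 6 genotype and day groups. No culture kept without neuT is among the samples, so effects of neuT and of culture time cannot be told apart. A second sequencing run was made of replicate 1 of each WT day together with the ATLD libraries, for 21 libraries in all. What promoter drives neuT, and how old and how many the mice were, is not stated in the labels. Whether replicates came from separate mice is not stated either, so the p-values reflect differences between libraries that could be purely technical.

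The mammary epithelium has an inner luminal layer, which contains hormone-sensing cells and the alveolar cells that make milk, and an outer basal layer that contracts. Luminal progenitor cells carry Kit and Elf5, and Elf5 drives alveolar differentiation together with prolactin and Stat5 signalling. Sox9 and Sox10 are found in progenitor cells of the gland, and Id4 is best known there as a gene of basal cells.

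Total counts were 30905703 to 50879106 in the original WT libraries, 46532851 to 48887808 in the resequenced ones and 46331204 to 51757203 in ATLD. Levels are CPM (a gene's share of the total count of its library) after TMM scaling, with mean ± SD taken from the 3 originals in each group. The original WT libraries and the ATLD libraries are of different sequencing batches, so WT and ATLD levels set side by side differ in batch too. Changes are log2 values ± SE from edgeR. A gene is called where its p-value, adjusted over all genes tested, is under 0.05. Mre11a, the gene that carries the allele, was at 42.2 to 58.5 CPM in the 12 WT libraries and at 14.0 to 17.1 CPM in the 9 ATLD libraries. All 12 epithelial markers checked were detected, and at day 0 Epcam had 638 ± 29.4 CPM in WT against 1034 ± 77.3 CPM in ATLD. In 3 original WT libraries, day 14 replicates 1 and 3 and day 28 replicate 2, genes rich in G and C had lower counts. They were lower by 0.365 to 0.432 log2 for each 10% of GC, against the mean of the group with its resequenced run. These libraries are called GC-poor here. At day 14 replicate 2 and the resequenced run went the other way, at 0.332 and 0.411, so the trends do not show which libraries are off. Values without the 3 GC-poor libraries are given beside the printed member results whose call or sign they changed and some others. Day 14 then rests on 1 original WT library, replicate 2, assumed to vary like the other groups. Those values are therefore not free of GC trends.

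Elf5, Sox10 and Kit fell steeply in WT after neuT activation while Id4 rose, and in ATLD the same 4 genes stayed far from their WT levels at both later days. At WT day 14, 3 members were higher and 6 lower than at day 0, among 18684 genes of which 15.2% were called higher and 15.1% lower (30.3% in all). At WT day 28, 2 were higher and 6 lower (24.7% of all genes called, 12.3% higher and 12.4% lower). In ATLD, 2 members were lower and none higher at day 14 (11.7% of all genes called, 5.18% higher and 6.49% lower), by edgeR, where 4 of 10 had an unadjusted p under 0.05, all 4 with a negative change, and DESeq2 also called 2. At ATLD day 28, 2 were higher and 3 lower (29.8% called, 14.1% higher and 15.7% lower). The median log2 change of the 10 members was -0.64 at WT day 14 and -0.63 at WT day 28, against 0.01 and 0.02 over all genes. In ATLD it was -0.25 at day 14 and 0.10 at day 28, against -0.03 and -0.02. Without the 3 GC-poor WT libraries Elf3 and Runx1 lost their calls at WT day 14, with changes of -0.38 and 0.59. At WT day 28 the same members were called as in the main fit. In these bulk samples, fewer cells of a type and less RNA per cell cannot be told apart.

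**Figure D1:**
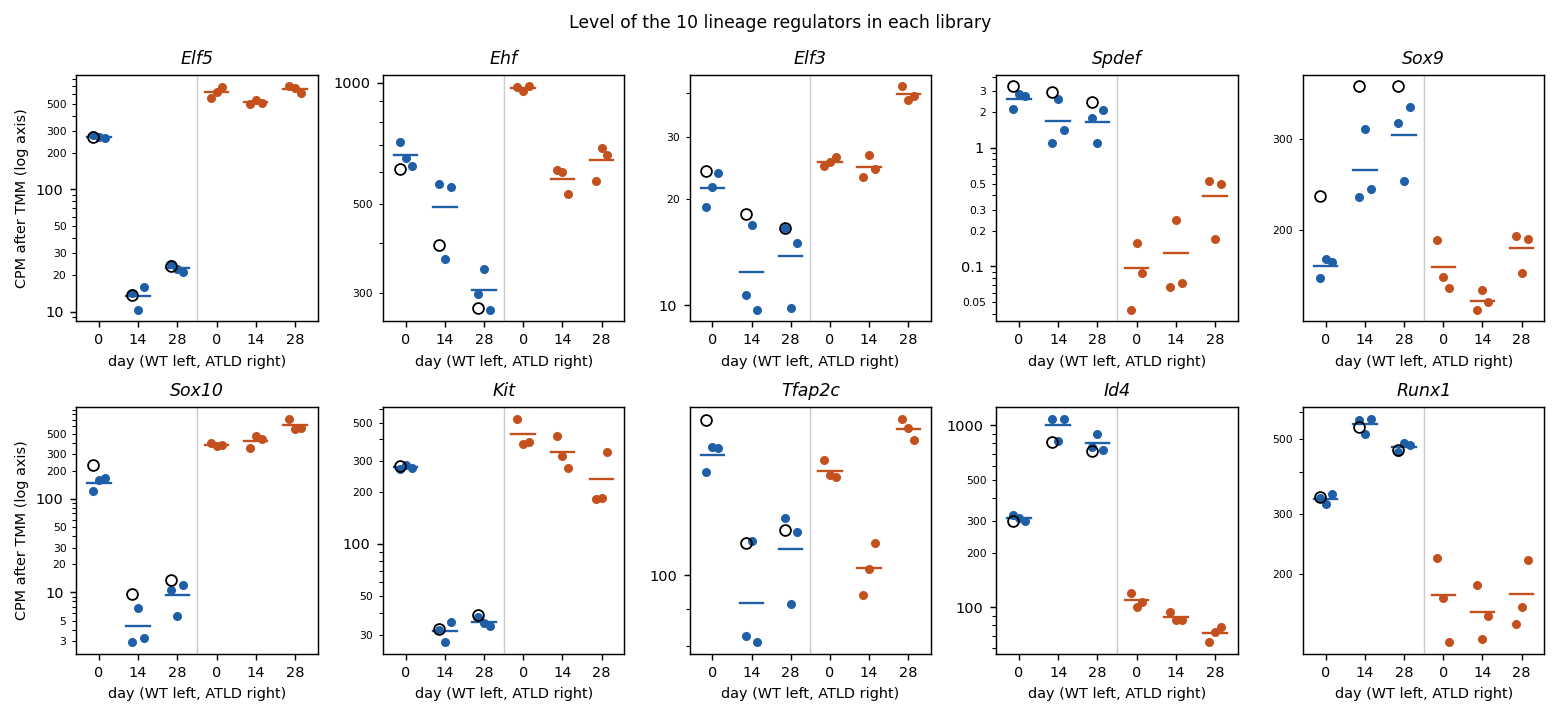
CPM after TMM scaling on a log axis for each of the 10 genes in each library. Filled points are original libraries (blue WT, orange ATLD; 3 per day, replicates 1 to 3 from left to right), short lines their means, and open circles the resequenced runs of WT replicate 1. The 6 WT points of Elf5 at day 14 and day 28 lie between 10.4 and 24.3 CPM, all 9 ATLD points between 497 and 706 CPM.

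Elf5, the alveolar and luminal progenitor ETS factor (ENSMUSG00000027186, mm10 chromosome 2, 103411688 to 103450989), had 278, 267 and 265 CPM in WT at day 0. At WT day 14 its 3 libraries had 14.1, 10.4 and 15.8 CPM, and at WT day 28 they had 24.3, 22.2 and 21.2 CPM. The ATLD libraries had 563, 622 and 695 CPM at day 0, 497, 540.5 and 509 CPM at day 14, and 706, 675 and 613 CPM at day 28. No WT library reached the lowest ATLD library, and the WT days did not overlap with each other. The WT fall was 20.0-fold at day 14 (log2 change -4.32 ± 0.13, adjusted p = 9.06e-13) and 11.97-fold at day 28 (-3.58 ± 0.13, adjusted p = 6.35e-12). From day 14 to day 28 Elf5 rose in WT by 0.74 ± 0.13 (adjusted p = 0.00815), a call lost without WT day 28 replicate 1 (0.67, adjusted p = 0.0726). In ATLD neither day differed from day 0 by the test, at -0.28 ± 0.13 (adjusted p = 0.190) and 0.08 ± 0.13 (adjusted p = 0.655). The runs of the same WT culture gave 278 and 268 CPM at day 0, 14.1 and 13.7 CPM at day 14, and 24.3 and 23.4 CPM at day 28.

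Ehf, an ETS factor of epithelial cells (ENSMUSG00000012350), lies beside Elf5 on chromosome 2 (103263433 to 103303278, minus strand), 108409 bases away with 3 noncoding gene models in between. It had 712, 649.6 and 620.0 CPM in WT at day 0, then 559.9, 366 and 553 CPM at day 14 and 299, 344 and 274 CPM at day 28. The ATLD levels were 975, 951 and 983 CPM at day 0, 606, 599 and 528 CPM at day 14, and 572, 689.6 and 662 CPM at day 28. Each genotype was highest at day 0, with no overlap between day 0 and either later day. The fall was called at day 28 in WT (-1.11 ± 0.14, adjusted p = 1.24e-05) and at both days in ATLD (-0.75 ± 0.14, adjusted p = 0.00165, and -0.60 ± 0.14, adjusted p = 0.00435). At WT day 14 it was -0.42 ± 0.14 (adjusted p = 0.0324), and -0.89 ± 0.14 without the 3 GC-poor libraries (adjusted p = 0.000227). That day 14 call was lost without WT day 0 replicate 1 (-0.34, adjusted p = 0.140), day 0 replicate 2 (-0.42, adjusted p = 0.0800) or day 14 replicate 2 (-0.24, adjusted p = 0.101). Ehf was the only member called lower between WT day 14 and day 28 (-0.69 ± 0.14, adjusted p = 0.0254), a call lost in 8 of 15 alternatives. Among these were the fits without WT day 14 replicate 1 or 3 (adjusted p = 0.188 and 0.153) or day 28 replicate 1 or 3 (adjusted p = 0.142 and 0.166). Without the 3 GC-poor libraries that difference was -0.35.

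Elf3, another epithelial ETS factor (ENSMUSG00000003051, chromosome 1, 135253575 to 135258568), had 19.1, 21.6 and 23.7 CPM in WT at day 0. It had 10.7, 16.9 and 9.72 CPM at WT day 14 and 16.6, 9.83 and 15.02 CPM at WT day 28, and the lowest values of both days were those of the GC-poor libraries. ATLD had 24.9, 25.5 and 26.3 CPM at day 0, 23.2, 26.7 and 24.4 CPM at day 14, and 42.0, 38.3 and 39.3 CPM at day 28. The ATLD day 28 libraries lay above all others. Elf3 rose there by 0.64 ± 0.19 over day 0 (adjusted p = 0.0158) and by 0.69 ± 0.19 over day 14 (adjusted p = 0.0175). The first of these calls was lost without ATLD day 0 replicate 1 or day 28 replicate 1 (adjusted p = 0.0526 and 0.0525), the other without ATLD day 14 replicate 1 or 3 or day 28 replicate 1 (adjusted p = 0.0712, 0.0583 and 0.0581). In WT it fell by 0.79 ± 0.19 at day 14 (adjusted p = 0.00409), but without the 3 libraries the change was -0.38 ± 0.13 (adjusted p = 0.0540). The WT change of -0.64 ± 0.19 at day 28 (adjusted p = 0.0197) was called, and the call was lost without WT day 0 replicate 3 (adjusted p = 0.0882) or day 28 replicate 2 (adjusted p = 0.0944).

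Spdef, an ETS factor of secretory epithelia (ENSMUSG00000024215, chromosome 17, 27714352 to 27728955), was near the limit of detection. In WT it had 102, 98 and 129 counts at day 0, 60, 109 and 67 at day 14, and 77, 40 and 99 at day 28. In ATLD it had 2, 7 and 4 counts at day 0, 3, 11 and 3 at day 14, and 23, 8 and 21 at day 28. Every WT library was above every ATLD library, at 1.09 to 2.88 CPM in the originals and 2.43 to 3.35 CPM in the resequenced runs against 0.0432 to 0.524 CPM. No WT day was called, since day 14 differed from day 0 by -0.62 ± 0.35 (adjusted p = 0.213) and day 28 by -0.62 ± 0.36 (adjusted p = 0.248). The day 14 value was -0.04 ± 0.39 without the 3 GC-poor libraries (adjusted p = 0.961) and -1.03 ± 0.34, a call, without WT day 14 replicate 2 (adjusted p = 0.0237). An offset for GC content called day 28 (-0.78 ± 0.24, adjusted p = 0.0197). The ATLD rise at day 28 was called (2.01 ± 0.69, adjusted p = 0.0238) and was lost without ATLD day 0 replicate 1 or 3 or day 28 replicate 1 or 3 (adjusted p = 0.0992, 0.0654, 0.0932 and 0.0747).

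Sequence upstream of the start sites is shown for Elf5, Kit and Id4, the members with a RefSeq entry among the 4 that moved most in WT. The 250 bases before each start are printed 5′ to 3′ on the strand of the gene (plus for all), from RefSeq on GRCm38.p6, with capitals for the ETS core motif GGAAG on either strand. Elf5 has a pair of annotated starts. Kit also has a pair, and its other window, chr5:75574741-75574990, overlaps the window printed here. The bases just after the Id4 start were not found in a GENCODE transcript.
Elf5 upstream start, chr2:103411848-103412097: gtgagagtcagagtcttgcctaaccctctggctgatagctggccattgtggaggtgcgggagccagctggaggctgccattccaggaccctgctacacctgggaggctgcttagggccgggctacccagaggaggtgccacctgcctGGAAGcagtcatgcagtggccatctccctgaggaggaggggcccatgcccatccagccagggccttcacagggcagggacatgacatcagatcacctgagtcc
Elf5 downstream start, chr2:103423818-103424067: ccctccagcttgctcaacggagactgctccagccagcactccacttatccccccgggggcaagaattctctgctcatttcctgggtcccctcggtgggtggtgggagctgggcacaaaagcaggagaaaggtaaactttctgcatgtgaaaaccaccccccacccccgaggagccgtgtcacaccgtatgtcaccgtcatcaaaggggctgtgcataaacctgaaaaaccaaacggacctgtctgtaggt
Kit, chr5:75574737-75574986: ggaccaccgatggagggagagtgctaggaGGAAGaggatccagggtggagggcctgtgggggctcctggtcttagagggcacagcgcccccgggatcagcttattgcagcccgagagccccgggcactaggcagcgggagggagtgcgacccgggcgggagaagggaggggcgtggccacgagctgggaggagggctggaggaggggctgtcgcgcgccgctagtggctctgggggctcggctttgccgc
Id4, chr13:48260866-48261115: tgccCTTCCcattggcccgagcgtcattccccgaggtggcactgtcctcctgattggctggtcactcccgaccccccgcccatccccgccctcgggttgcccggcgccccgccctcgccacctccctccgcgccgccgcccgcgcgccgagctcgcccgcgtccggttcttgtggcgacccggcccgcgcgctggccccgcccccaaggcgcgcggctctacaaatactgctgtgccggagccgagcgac
The motif begins 103 bases before the upstream Elf5 start, 221 bases before the Kit start of the printed window and 246 bases before the Id4 start. It begins 225 bases before the other Kit start. It is not in the window of the downstream Elf5 start. It is found in 64.1% of 32851 windows of this length from RefSeq, so a match sets none of these genes apart, and a match is no sign of binding. The GC content of the windows was 62.8% and 56.8% for Elf5, 70.8% for Kit and 75.6% for Id4.

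Sox10, a factor of neural crest and of mammary progenitor cells (ENSMUSG00000033006, chromosome 15, 79154908 to 79165240), showed the largest fall of the list. In WT it had 121, 159 and 166 CPM at day 0, 2.93, 6.87 and 3.30 CPM at day 14, and 10.5, 5.60 and 12.1 CPM at day 28. Its ATLD levels were 391, 367 and 375 CPM at day 0, 349, 465 and 432 CPM at day 14, and 723, 564 and 577 CPM at day 28. The WT and ATLD libraries did not overlap at any day, and WT day 0 did not overlap with the later WT days. In WT the fall was 34.3-fold at day 14 (-5.10 ± 0.28, adjusted p = 1.56e-09) and 15.8-fold at day 28 (-3.98 ± 0.27, adjusted p = 2.17e-08). Without the 3 GC-poor libraries it was -4.47 ± 0.21 and -3.74 ± 0.16. With a GC content of 61.8%, the highest of the list, Sox10 differed between the runs of a culture, at 121 and 230.2 CPM on day 0, 2.93 and 9.54 CPM on day 14, and 10.5 and 13.5 CPM on day 28. In ATLD the level at day 28 was 0.72 ± 0.27 above day 0 (adjusted p = 0.0526), not called here and called in 7 of 14 alternatives. Among these was the fit without the 3 GC-poor WT libraries (0.71 ± 0.13).

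Sox9, a factor of progenitor cells (ENSMUSG00000000567, chromosome 11, 112782224 to 112787760), moved the opposite way in WT. It had 161, 176 and 173 CPM at WT day 0, 231, 314 and 239 CPM at day 14, and 321, 248 and 345 CPM at day 28. In ATLD the libraries had 191, 162 and 154 CPM at day 0, 140.1, 153 and 145 CPM at day 14, and 195, 165 and 192 CPM at day 28. The later WT days lay above every other group. ATLD day 0 and day 28 overlapped with WT day 0, and ATLD day 14 lay below it. Sox9 rose in WT by 0.62 ± 0.14 at day 14 (adjusted p = 0.00191) and by 0.84 ± 0.14 at day 28 (adjusted p = 0.000137). No ATLD day was called, with changes of -0.22 ± 0.14 (adjusted p = 0.395) and 0.12 ± 0.14 (adjusted p = 0.537). Resequencing gave higher values in each WT culture, at 232, 379 and 379.8 CPM against 161, 231 and 321 CPM in the original runs. The resequenced WT day 0 run, made together with the ATLD libraries, thus lay above every ATLD library.

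Kit, the receptor for stem cell factor (ENSMUSG00000005672, chromosome 5, 75574916 to 75656722), had 272, 287 and 274 CPM in WT at day 0. At day 14 it had 31.9, 27.1 and 35.4 CPM and at day 28 38.0, 34.8 and 33.8 CPM. In ATLD it had 528, 379 and 385 CPM at day 0, 417, 322 and 272 CPM at day 14, and 181, 184 and 340.1 CPM at day 28. The later WT days lay below all other libraries, while ATLD libraries of day 14 and day 28 overlapped with WT day 0. The WT fall was 8.81-fold at day 14 (-3.14 ± 0.21, adjusted p = 9.76e-09) and 7.81-fold at day 28 (-2.97 ± 0.21, adjusted p = 2.32e-08). Kit also fell in ATLD at day 28, by 0.87 ± 0.21 (adjusted p = 0.00499), and was at -0.36 ± 0.21 at day 14 (adjusted p = 0.360). Kitl, which codes for stem cell factor, was at 438 ± 29.7, 291 ± 60.0 and 262 ± 44.1 CPM over the WT days and at 188 ± 6.65, 108 ± 5.35 and 157 ± 20.4 CPM over the ATLD days.

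Tfap2c, the AP-2 gamma factor of luminal cells (ENSMUSG00000028640, chromosome 2, 172549593 to 172558622), varied least between the groups. It had 139, 150.2 and 149.8 CPM in WT at day 0, 82.5, 112 and 80.9 CPM at day 14, and 120.0, 91.4 and 115 CPM at day 28. The ATLD values were 144, 137 and 137 CPM at day 0, 93.9, 102 and 111 CPM at day 14, and 164, 159 and 153 CPM at day 28. Both genotypes were lower at day 14 than at day 0. The ATLD libraries of day 28 lay above those of ATLD day 0, a difference that was not called (0.19 ± 0.12, adjusted p = 0.265). Tfap2c fell in WT by 0.67 ± 0.12 at day 14 (adjusted p = 0.000433; -0.43 ± 0.12 without the 3 GC-poor libraries) and by 0.43 ± 0.12 at day 28 (adjusted p = 0.0162), the later call being lost without WT day 0 replicate 2 or 3 or day 28 replicate 2 (adjusted p = 0.0508, 0.0586 and 0.0867). In ATLD it fell by 0.45 ± 0.12 at day 14 (adjusted p = 0.0236), a call lost when any of 5 of the 6 libraries was left out, all but day 14 replicate 3 (adjusted p of 0.0501 to 0.103). From day 14 to day 28 it rose in ATLD by 0.64 ± 0.12 (adjusted p = 0.00177), which makes Tfap2c and Elf3 the 2 members called between these ATLD days (17.3% of all genes called, 8.25% higher and 9.05% lower). Without the 3 GC-poor WT libraries, Elf5, Spdef, Sox9, Sox10 and Id4 were called there too, though their changes hardly moved. They were 0.34, 1.55, 0.31, 0.56 and -0.32, against 0.37, 1.58, 0.34, 0.58 and -0.29 in the main fit. The SE of each was smaller, and the share of all genes called in that fit is not given here. In WT the same comparison called Elf5 and Ehf (0.905% of all genes called, 0.530% higher and 0.375% lower).

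Id4, the inhibitor of helix-loop-helix factors (ENSMUSG00000021379, chromosome 13, 48261228 to 48266026), had 321, 311 and 299.6 CPM in WT at day 0. At WT day 14 it had 1091, 825 and 1086 CPM and at day 28 764, 896 and 736 CPM. In ATLD it had 120.2, 100.1 and 107 CPM at day 0, 93.9, 85.1 and 85.3 CPM at day 14, and 64.2, 73.5 and 77.8 CPM at day 28. The 3 ATLD days did not overlap with each other, and all lay below WT. Id4 rose 3.23-fold in WT at day 14 (1.69 ± 0.12, adjusted p = 1.00e-08) and 2.57-fold at day 28 (1.36 ± 0.12, adjusted p = 1.72e-07). In ATLD it fell by 0.60 ± 0.12 at day 28 (adjusted p = 0.00118), with -0.31 ± 0.12 at day 14 (adjusted p = 0.125), where it was called without the 3 GC-poor WT libraries (-0.29 ± 0.09, adjusted p = 0.0486). Id4 has a low GC content, 42.6%, and its highest WT day 14 values were in the GC-poor libraries. Without these 3 libraries the WT change at day 14 was 1.37 ± 0.13.

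Runx1, a Runt factor of luminal and basal cells (ENSMUSG00000022952, chromosome 16, 92601466 to 92826149), had 335, 321 and 345 CPM in WT at day 0, 570.0, 515 and 574 CPM at day 14, and 457, 487 and 480.0 CPM at day 28. ATLD libraries held 224, 169.8 and 126 CPM at day 0, 185, 128 and 151 CPM at day 14, and 142, 159.7 and 219.8 CPM at day 28. The WT days did not overlap with each other or with ATLD, and the ATLD days overlapped throughout. Runx1 rose in WT by 0.73 ± 0.18 at day 14 (adjusted p = 0.00550), and was at 0.59 ± 0.26 without the 3 GC-poor libraries (adjusted p = 0.106). At WT day 28 the change of 0.51 ± 0.18 was not called (adjusted p = 0.0529) and was called in 5 of 15 alternatives. Neither ATLD day was called, at -0.16 ± 0.18 (adjusted p = 0.687) and 0.01 ± 0.18 (adjusted p = 0.982).

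**Figure D2:**
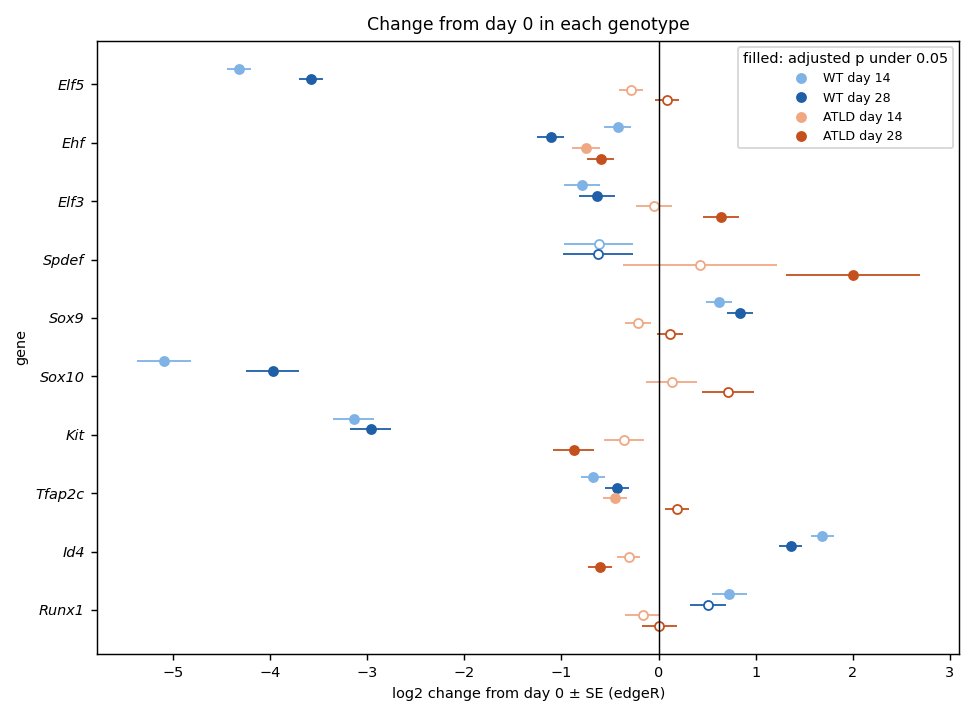
Log2 change from day 0 (x axis) of each gene (y axis), with SE bars, for WT in blue and ATLD in orange, lighter at day 14 and darker at day 28. Filled points are called; in WT the points of Sox10, Elf5 and Kit lie at -2.97 or lower and those of Id4 at 1.36 or higher.

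The changes from day 0 were also compared between the genotypes, as the ATLD change minus the WT change. All original WT libraries are of the first sequencing batch and all ATLD libraries of the second, and no batch term was used. A batch effect cancels here only if it is equal at all days. Over the 3 days the resequenced run of WT replicate 1 differed from the original by 0.92, 1.70 and 0.36 log2 for Sox10. For Spdef it differed by 0.66, 1.44 and 0.44, and for Elf5 by -0.05, -0.05 and -0.06. At day 14 the ATLD change minus the WT change was called for 6 members, higher for Elf5, Sox10 and Kit and lower for Id4, Sox9 and Runx1 (21.3% of all genes called, 10.8% higher and 10.6% lower). At day 28 it was called for 8, higher for Elf5, Elf3, Spdef, Sox10, Kit and Tfap2c and lower for Id4 and Sox9 (27.5% called, 13.5% higher and 14.0% lower). The difference was 5.23 ± 0.39 for Sox10, 4.04 ± 0.18 for Elf5 and -1.999 ± 0.17 for Id4 at day 14. Ehf fell in both genotypes, and its difference was not called at day 14 (-0.33 ± 0.20, adjusted p = 0.294) or day 28 (0.52 ± 0.20, adjusted p = 0.0681). The day 14 value turned to 0.16 ± 0.17 without the 3 GC-poor libraries (adjusted p = 0.561), and was called at -0.51 ± 0.16 without WT day 14 replicate 2 (adjusted p = 0.0199). Without the 3 GC-poor libraries the Runx1 difference at day 14 was -0.73 ± 0.32 (adjusted p = 0.117) and the Ehf difference at day 28 was 0.64 ± 0.15 (adjusted p = 0.00330). With the resequenced runs in place of the originals the Sox9 difference at day 28 was -0.62 ± 0.24 (adjusted p = 0.0711). The Runx1 call was also lost without ATLD day 0 replicate 1 (adjusted p = 0.0557) or ATLD day 14 replicate 2 (adjusted p = 0.0588).

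For each day ATLD was compared with WT using the 21 libraries together and a term for the sequencing batch. The term rests on the 3 WT cultures run in both batches and is the same at all days. At day 0, day 14 and day 28 the resequenced run differed from the original by 0.92, 1.70 and 0.36 log2 for Sox10. For Elf3 it differed by 0.34, 0.77 and -0.002. A batch effect particular to a day would thus stay in the differences below. Where WT replicate 1 was left out of this fit, both its runs were. At day 0 Elf5, Ehf and Kit were called higher in ATLD and Spdef, Sox9, Id4 and Runx1 lower, 7 of 10 where 54.6% of 19345 genes were called, 25.5% higher and 29.1% lower. At day 14, 5 were higher and 4 lower (64.3% of all genes called, 29.7% higher and 34.6% lower), and at day 28, 6 were higher and 4 lower (63.4% called, 28.8% higher and 34.7% lower). In 5 members, Elf5, Sox10, Spdef, Id4 and Runx1, the 9 ATLD libraries did not overlap with the 9 original WT libraries over all days, as for 37.1% of 18684 genes (17.7% with ATLD higher, 19.4% lower). These libraries also differ in sequencing batch, so batch and genotype cannot be told apart in this count.

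**Figure D3:**
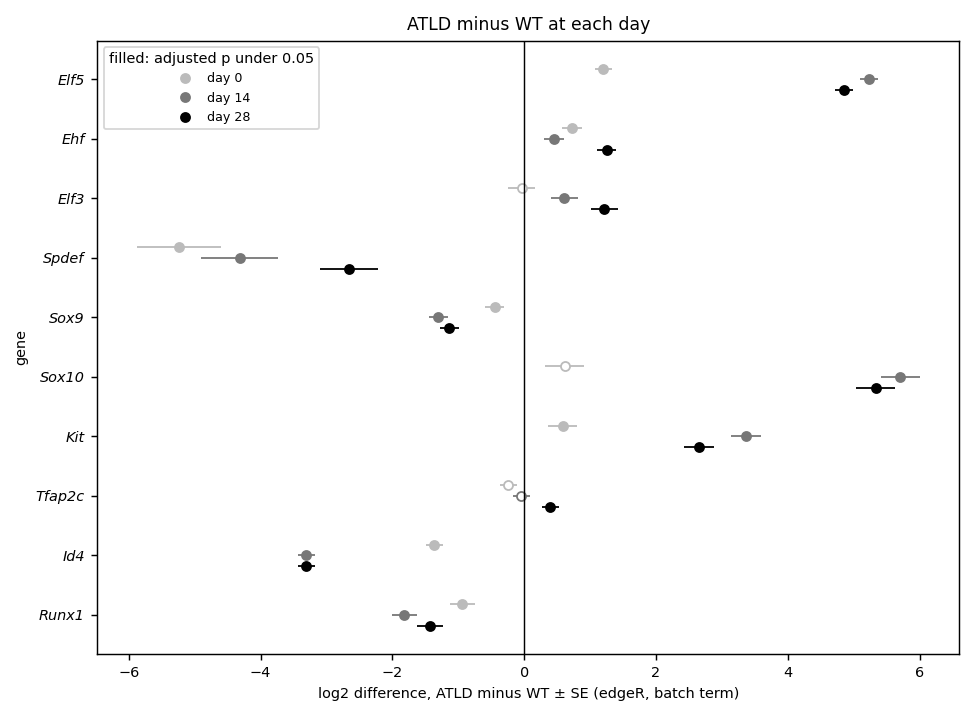
Log2 difference, ATLD minus WT (x axis), of each gene (y axis) at day 0 (light), day 14 (grey) and day 28 (black), with SE bars, from the fit with the batch term. Filled points are called; Elf5 moves from 1.20 at day 0 to 5.23 and 4.85 at the later days, and Id4 from -1.37 to -3.30 and -3.31.

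Elf5 was 2.30-fold higher in ATLD at day 0 (1.20 ± 0.13, adjusted p = 1.07e-06), 37.6-fold at day 14 (5.23 ± 0.13, adjusted p = 2.95e-15) and 28.8-fold at day 28 (4.85 ± 0.13, adjusted p = 7.93e-15). Sox10 was not called at day 0 (0.61 ± 0.29, adjusted p = 0.0885) and was higher at day 14 by 5.71 ± 0.30 (adjusted p = 5.47e-11) and at day 28 by 5.34 ± 0.30 (adjusted p = 1.64e-10). Its day 0 difference was called in 6 of 15 alternatives, at 0.84 ± 0.15 without the 3 GC-poor libraries (adjusted p = 0.000156) and at 0.66 ± 0.25 with culture as a random block in limma voom (adjusted p = 0.0350). For Kit the difference was 0.58 ± 0.22 at day 0 (adjusted p = 0.0349), then 3.37 ± 0.22 at day 14 (adjusted p = 7.74e-10), and by day 28 it was 2.65 ± 0.22 (adjusted p = 1.67e-08). The Kit call at day 0 was lost without WT day 0 replicate 1 (0.54, adjusted p = 0.201) or ATLD day 0 replicate 1 (0.41, adjusted p = 0.142). In the other direction, Id4 differed by -1.37 ± 0.13, -3.30 ± 0.13 and -3.31 ± 0.13 over the 3 days and Runx1 by -0.94 ± 0.19, -1.82 ± 0.19 and -1.43 ± 0.19, all called.

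Ehf was higher in ATLD by 0.73 ± 0.15, 0.45 ± 0.15 and 1.25 ± 0.15 over the 3 days, all called, the day 14 call being lost without WT day 14 replicate 1 (adjusted p = 0.0652). Elf3 was not called at day 0 (-0.04 ± 0.20, adjusted p = 0.893; 0.13 ± 0.10 without the 3 GC-poor libraries, adjusted p = 0.258) and was higher by 0.61 ± 0.20 and 1.22 ± 0.20 at the later days. For Tfap2c the difference was called at day 28 alone (0.39 ± 0.13, adjusted p = 0.0145), and lost there without WT day 28 replicate 1 (adjusted p = 0.0704). Spdef differed by -5.24 ± 0.64, -4.32 ± 0.59 and -2.66 ± 0.44, with 2 to 23 counts in each ATLD library. Sox9 differed by -0.45 ± 0.14 at day 0 (adjusted p = 0.0140), -1.30 ± 0.14 at day 14 and -1.14 ± 0.14 at day 28, and the day 0 call was lost without WT day 0 replicate 1 (adjusted p = 0.0805) or ATLD day 0 replicate 3 (adjusted p = 0.0554).

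Of the members, the batch term moved Sox10 most. Within the second batch each day had 3 ATLD libraries and 1 resequenced WT run, so the spread came from ATLD alone and the WT run was assumed to vary likewise. There the difference of every member lay within 0.223 of the value above. Both fits hold the same ATLD libraries and resequenced runs, so this closeness is no separate check of the batch term. Sox10 at day 0 differed by 0.76 ± 0.19 (adjusted p = 0.0103) and Kit at day 0 by 0.66 ± 0.33 (adjusted p = 0.133), with no replicate of WT behind either p. The fit of all libraries counts the repeat runs of 3 cultures as separate. With culture as a random block in limma voom 8, 9 and 10 members were called over the days, Sox10 at day 0 being the one added. The share of all genes that limma voom called is not given here, and edgeR called 54.6%, 64.3% and 63.4%. Without a batch term, in the 18 original libraries, Sox10 differed by 1.34 ± 0.27, 6.57 ± 0.28 and 6.03 ± 0.27. Sox9 at day 0 then differed by -0.01 ± 0.14 (adjusted p = 0.933) and Ehf at day 14 by 0.22 ± 0.14 (adjusted p = 0.172), neither called.

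**Figure D4:**
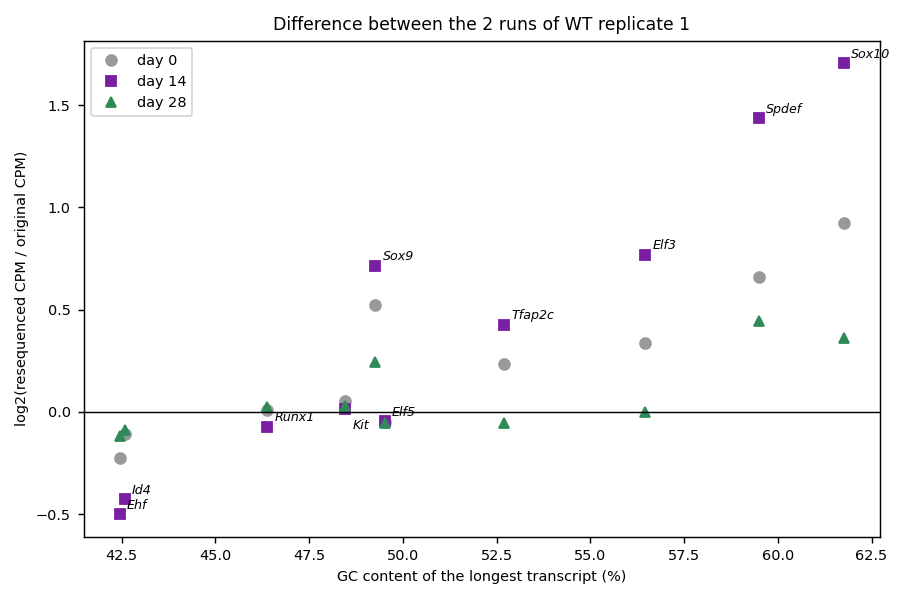
Log2 ratio of resequenced to original CPM of WT replicate 1 (y axis) against the GC content of the longest transcript of each member (x axis, %), at day 0, day 14 and day 28, with names beside the day 14 points. At day 14 Sox10 (GC 61.8%) lies at 1.70 and Ehf (GC 42.4%) at -0.50, while Elf5, Kit and Runx1 lie near 0 at every day.

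Per kilobase of the deposited gene length, the members ranged widely at WT day 0. Ehf had 118 CPM per kilobase, Id4 80.7, Sox10 48.8, Elf5 45.9, Sox9 41.1, Tfap2c 39.8, Kit 31.1, Runx1 27.7, Elf3 9.68 and Spdef 1.12. On that scale Id4 led at WT day 14 with 260.1 and Sox10 at ATLD day 28 with 204, where Id4 had 18.7. By mean level over the 6 groups Elf5 was ordered ATLD day 28, ATLD day 0, ATLD day 14, WT day 0, WT day 28 and WT day 14, and in this order the first 2 groups alone had overlapping libraries. Id4 ran from WT day 14 through WT day 28, WT day 0, ATLD day 0 and ATLD day 14 to ATLD day 28, with an overlap of the first 2 groups alone. For Kit the order was ATLD day 0, ATLD day 14, WT day 0, ATLD day 28, WT day 28 and WT day 14, where only ATLD day 28 and WT day 28 were neighbours without an overlap.

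The genes whose levels followed a member most closely over the 18 original libraries, by Pearson's r of log2 CPM, were Ptpn18 and Chil1 for Elf5 (both 0.993), Syne4 (0.998) and Rgl3 (0.995) for Sox10, and Tmem229a (0.991) and Slc28a3 (0.990) for Kit. For Id4 they were Cblb (0.994) and Enpp2 (0.993), for Runx1 Lrp12 and Rab22a (both 0.990), for Sox9 Paqr7 (0.976) and Lypd3 (0.960), and for Spdef Cbs (0.954) and Msx2 (0.952). Elf3 was closest to Pex5 and Actn4 (both 0.987), Ehf to Sestd1 (0.973) and Spink5 (0.940), and Tfap2c to Shpk (0.937) and Exoc3l4 (0.936). These libraries fall into 6 groups and share depth and GC trends, so the coefficients describe how the group means run and carry no test.

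Surface and enzyme markers of luminal progenitor cells moved with Elf5 and Kit in WT. All 6 of the 7 listed genes that could be tested fell at WT day 14 and at day 28, with a median log2 change of -1.96 and -1.62 against 0.01 and 0.02 over all genes. Cd14, an endotoxin co-receptor, fell by 3.36 ± 0.16 and Aldh1a3, a retinaldehyde dehydrogenase, by 2.59 ± 0.09 at day 14. In ATLD at day 28, 3 rose and 2 fell, with Cd14 at 1.51 ± 0.16 and Slc34a2, a phosphate transporter, at -2.71 ± 0.16. Against WT, 2 of the 6 were higher and 3 lower in ATLD at day 0, 5 and 1 at day 14, and 2 and 1 at day 28. The medians were -0.21, 1.38 and -0.02, so the list was not higher in ATLD at every day. Aldh1a3 was at 369 ± 19.1, 61.3 ± 1.89 and 82.8 ± 6.15 CPM over the WT days and at 1057 ± 56.6, 1438 ± 132 and 1374 ± 27.3 CPM over the ATLD days.

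Genes of alveolar signalling, which act with Elf5, fell in part. At WT day 14, 6 of 10 fell and none rose (median -0.64), and at day 28 5 of 10 fell. Tnfrsf11a, the receptor RANK, fell by 2.61 ± 0.15 and Cish, a target of Stat5, by 1.99 ± 0.16 at WT day 14. In ATLD no gene of this list was called at day 14 by edgeR (4 of 10 with an unadjusted p under 0.05), and 3 rose and 1 fell at day 28. Among milk protein genes all 7 tested of 8 fell in WT at both days, with Csn3, kappa-casein, at -8.33 ± 0.18 at day 14. In ATLD 1 rose and 3 fell at day 14, and 4 rose and 1 fell at day 28. Against WT, 4 of the 7 milk genes were higher and 1 lower in ATLD at day 0, 5 were higher at day 14 and 7 at day 28, with medians of 0.59, 5.63 and 5.999 against -0.05, -0.07 and -0.06 over all genes. Of the 10 alveolar genes 1 was higher in ATLD at day 0, 6 were higher and 1 lower at day 14, and 8 were higher at day 28, with medians of 0.02, 0.45 and 0.63.

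Regulators of hormone-sensing cells were mostly lower in ATLD. Of 12, 8 were lower and 1 higher in ATLD at day 0, 7 and 3 at day 14, and 9 and 2 at day 28, with medians of -1.68, -1.85 and -1.70 against -0.05, -0.07 and -0.06 over all genes. Foxa1, the pioneer factor of estrogen receptor sites, had 115 ± 1.86 CPM at WT day 0 against 3.95 ± 1.44 CPM at ATLD day 0. Its difference was -5.00 ± 0.19, -6.12 ± 0.20 and -4.28 ± 0.19 over the 3 days. Within WT, 6 rose and 4 fell at day 14, with Prlr, the prolactin receptor, at -2.61 ± 0.20 and Tnfsf11, RANK ligand, at 1.90 ± 0.28 from a low level.

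Basal regulators, of which 10 of 11 could be tested, moved both ways. At WT day 14, 4 rose and 2 fell (median 0.42), led by Bcl11b, a zinc finger factor, at 1.97 ± 0.36 and Mef2c, a MADS box factor, at 1.70 ± 0.12. In ATLD 2 rose and 5 fell at day 28 (median -0.42). The keratins of the layers were measured beside them. Krt5 and Krt14, of basal cells, rose at WT day 14 by 1.55 ± 0.25 and 1.48 ± 0.33, while Krt8 and Krt18, of luminal cells, fell by 1.29 ± 0.28 and 1.40 ± 0.16. In ATLD at day 14 Krt5 was at -0.69 ± 0.25 (adjusted p = 0.0939) and Krt8 at -0.52 ± 0.28 (adjusted p = 0.306), and Krt5 fell by 1.04 ± 0.25 at day 28 (adjusted p = 0.00474). Over the whole epithelial list 3 genes rose and 6 of 12 fell at WT day 14, and its summed level was 4916 to 6058 CPM at WT day 0, 5666 to 12400.2 CPM at WT day 14 and 10182 to 10320.2 CPM at ATLD day 0. The part of these keratin levels in the results for the members was not tested.

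Relatives of the members moved both ways. Of 17 other ETS genes tested of 22, 4 rose and 3 fell at WT day 14 (median 0.10 against 0.01 over all genes), near the 15.2% higher and 15.1% lower over all genes. Etv1, a PEA3 group factor, fell by 5.09 ± 0.18, from 38.5 ± 2.85 to 1.12 ± 0.319 CPM. Of 10 other SOX genes tested of 13, 4 rose and 1 fell at WT day 14, Sox15 by 2.27 ± 0.39 and Sox11 by 2.07 ± 0.29, both from low levels. Among 13 paralogs and partners 3 rose and 4 fell. Id1 and Id3, paralogs of Id4, fell at WT day 14 by 1.98 ± 0.24 and 2.65 ± 0.38 where Id4 rose. Runx2 and Runx3, paralogs of Runx1, rose with it, by 1.40 ± 0.12 and 1.62 ± 0.21.

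Markers of other cells that express some of the members were also measured. Of 8 mast cell markers, cells that carry Kit, 5 had no count in any library and all 8 stayed under 1 CPM, with a summed level of at most 0.518 CPM. Of 10 markers of blood cells, which express Runx1, 8 stayed under 1 CPM, and the sum was 6.81 to 12.1 CPM in original WT libraries, 2.40 to 3.13 CPM in the resequenced runs and 2.23 to 3.35 CPM in ATLD. Lyz2, lysozyme, held most of it, at 4.25 to 9.04 CPM at WT day 0. Runx1 had 335 and 336 CPM in the original and resequenced runs of that day. For cells that carry Sox10, 4 of 6 melanocyte markers stayed under 1 CPM. Of 10 Schwann cell markers 2 stayed under 1 CPM, among them Foxd3 with no count, and the list was not low. Of its 9 tested genes 6 fell and 1 rose at WT day 14 (median -1.52) and at WT day 28 (median -0.81), as Sox10 fell. In ATLD none of the 9 was called at day 14 by edgeR (2 with an unadjusted p under 0.05), and 2 rose and 2 fell at day 28. The ATLD change minus the WT change was higher for 5 and lower for 1 at day 14, and higher for 4 at day 28. Against WT, 1 of the 9 was higher and 5 lower in ATLD at day 0, 3 and 2 at day 14, and 3 and 4 at day 28. The medians were -1.10, -0.30 and -0.52, so between the genotypes the list as a whole did not run with Sox10. Cdh19, a cadherin of that list, ran with Sox10, at 9.80 ± 1.04, 0.0419 ± 0.00525 and 0.0273 ± 0.0473 CPM over the WT days and 17.2 ± 0.532, 14.2 ± 1.70 and 19.2 ± 1.86 CPM over the ATLD days. The part of this list in the Sox10 result was not tested. The summed Schwann list was 309 to 336 CPM at WT day 0, 257 to 283 CPM at day 14 and 242 to 271 CPM at day 28, and 232 to 329 CPM over the ATLD libraries.

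Fibroblast markers summed to 50.4 to 57.1 CPM at WT day 0, 18.6 to 20.95 CPM at WT day 14 and 33.4 to 36.2 CPM at WT day 28, and to 11.4 to 31.6 CPM in ATLD. Markers of lung summed to 9.01 to 18.8 CPM in original WT libraries and 2.02 to 4.32 CPM in the resequenced runs, and to 6.72 to 17.9 CPM in ATLD. Endothelial, adipocyte and muscle markers summed to at most 3.12, 0.147 and 2.83 CPM.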

How the data were processed

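Polyadenylated RNA of mammary organoids was sequenced from a stranded library kit. Reads were summarised by the authors as raw counts per gene with featureCounts on mm10, and DESeq2 was used, per the submitters' processing notes, without versions. No aligner, gene model release or use of strand in counting is named in the sources used here, so reads of antisense genes that overlap Elf3, Id4 and Runx1 may not be told apart. The deposited table also holds each gene's position and length, which was used for levels per kilobase. All 55536 gene IDs matched GENCODE vM21 with equal start and end, and 55450 had a GC content. No count column was left out (0 unused).

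Genes were filtered with filterByExpr (minimum count 10, minimum total 15), scaled by TMM and tested with the quasi-likelihood F test of edgeR 4.0.16 (two-sided, R 4.3.3) with Benjamini-Hochberg adjustment over all genes. Day comparisons and their difference between genotypes used the 18 originals without a batch term, with 18684 genes tested and 12 residual df. Genotype comparisons used all 21 with a term for batch, the same at all days, with 19345 genes tested and 14 residual df. The resequenced runs are repeat runs of 3 cultures, which that fit treats as separate libraries. Scripts were tested on simulated data.

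The members and gene lists were chosen with earlier results of these data known. Named were all members, at most 4 called genes of largest change per list and comparison, the 2 genes most like each member (mean log2 CPM of at least 1), and markers of the layers and of other cells. Alternatives were other size factors, no filter, DESeq2 1.42.0, a GC offset, a replicate block and the compared groups alone. Further ones were other uses of the resequenced runs, limma 3.58.1 voom and leaving out each culture. In the genotype fit, leaving out a WT replicate 1 also removed its resequenced run, the only WT library of that day in the second batch. The alternative without the 3 GC-poor libraries was chosen after seeing the data. Figures were drawn with matplotlib 3.10.9 in Python 3.11.15.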

Additional observations from a re-analysis of the deposited data

Results flagged for a closer look

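For 14 results the change from day 0 differed between the genotypes by the edgeR test of the difference itself (ATLD change minus WT change, log2, with 3 libraries in each group). Over all genes that test called 21.3% at day 14 and 27.5% at day 28. That test has no batch term, and genotype and sequencing batch go together in its libraries. At day 14 the difference was 4.04 for Elf5, 5.23 for Sox10 and 2.78 for Kit, and -0.84 for Sox9, -1.999 for Id4 and -0.89 for Runx1. At day 28 it was 3.67 for Elf5, 1.28 for Elf3, 2.63 for Spdef, 4.70 for Sox10, 2.09 for Kit and 0.62 for Tfap2c, and -0.72 for Sox9 and -1.96 for Id4. The Spdef value rests on 2 to 23 counts in each ATLD library.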

How the results depend on the processing

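No called member result changed sign under the alternatives run. Of 68 called member results 51 were called under every alternative run and 17 were lost under at least 1, and of 42 not called 21 were called by some alternative. The 2 members called between WT day 14 and day 28 became 1 with the replicate block, 0 with the compared groups alone, 1 with the resequenced runs in place of the originals and 1 without the 3 GC-poor libraries. The 2 called between the same ATLD days became 6 with the GC offset, 5 with the groups alone and 7 without the GC-poor libraries. Leaving out 1 library gave 0 to 5 and 1 to 3 members in these comparisons, 1 to 2 for ATLD day 14 and 3 to 5 for ATLD day 28 against day 0.

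Over all genes, the 169 called between WT day 14 and day 28 became 312 with DESeq2, 281 with the GC offset, 353 with all 21 libraries, 100 with the block, 0 with the groups alone, 94 with the resequenced runs in place and 38 without the GC-poor libraries. They became 3817 without WT day 14 replicate 2, 72 and 80 without its replicates 1 and 3, and 62 and 67 without WT day 28 replicates 1 and 3. For ATLD day 14 against day 0, 2180 became 3488 with the GC offset. For ATLD against WT at day 0, 10568 became 6927 without both runs of WT day 0 replicate 1. Samples that share a replicate number did not deviate together (correlations from -0.708 to 0.324), so the numbers were not taken as pairs. Between WT day 14 and day 28 the GC trends of same-numbered libraries ran opposite ways. For replicate 2 they were 0.33 and -0.43 log2 for each 10% of GC against the group mean. Such trends can hide a shared source, so the check cannot show that there was none. Under the block Ehf lost its calls at WT day 14 (adjusted p = 0.0545) and between WT day 14 and day 28 (adjusted p = 0.0704). Spdef did not pass the filter with the ATLD groups alone and has no value there, and its counts in ATLD limit its precision.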
